A study of Homo sapiens with 21 samples.

Results

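PFOA, a perfluoroalkyl carboxylic acid, was compared with control in differentiated SH-SY5Y cells over all expressed genes. The comparison takes the 3 libraries named for PFOA and the 3 named as controls, 6 of the 21 libraries of the series, and 24879 of 62656 genes in the count table were tested. SH-SY5Y is an established human neuroblastoma line of the sympathetic lineage, unmodified here by its labels, that takes on neuron-like features when differentiated. The cells had undergone 11 days of differentiation. The PFOA group then received 30 µM PFOA for 24 h in solutions with a final 1% methanol. The sources used here do not say whether the controls received methanol. If they did not, effects of PFOA and of methanol cannot be told apart here. The series covers 6 fluorinated compounds at that dose and time, a level it describes as sub-toxic, and its stated purpose is to examine neurotoxicity. PFDA and PFOS, the most closely related of the other compounds, were set beside PFOA at the same dose and time, with 3 libraries each. The labels do not state that the 3 libraries of a group are separate cultures. The p-values therefore reflect only how far these libraries differ, and that spread may be technical.

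PFOA is a surfactant-like fatty acid analogue with a fully fluorinated tail, and it is best known in the liver as a ligand of the lipid-sensing nuclear receptor PPARA. Neurons and neuroblastoma cells express immediate early genes, such as EGR1 and FOS, when growth factors or electrical activity switch on the ERK kinases and calcium signalling. Serum response factor, which binds CArG boxes, and CREB, which binds cAMP response elements, drive these genes, whose transcripts are short-lived.

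Total counts ran from 11245199 to 21643077 in the PFOA libraries and from 22179910 to 24905803 in the controls, so every PFOA library was shallower than every control, and the part of depth in the results was not tested. Levels are given as CPM, counts scaled to a common library size after TMM normalization (trimmed mean of M-values), and adjusted p-values come from edgeR's quasi-likelihood test with Benjamini-Hochberg adjustment. Among 19823 genes at a mean of 1 CPM or more, the 95% interval of the log2 fold change reached a median of 0.30 to either side. For 86.4% of these genes the interval lay within a 2-fold change in either direction. Control replicate 3 stood apart from the other control and PFOA libraries. Mitochondrial ribosomal RNA made up 1.96% of its counts, against at most 0.00546% in the other controls and at most 0.0130% in the PFOA libraries. The authors' normalized table does not hold control replicate 3. In the rest of the series 8:2 FTOH replicate 3 had 2.90% and is absent from that table too, and PFDA replicate 2 had 0.243%. Of 13 genes whose fitted log2 fold change lay beyond 2.5 in either direction, 8 were over 10 times higher in control replicate 3 than in either other control, among them MT-RNR1 and MT-RNR2, and none of the 13 passed the test. Results that depend on control replicate 3 are given with and without it.

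The cells expressed the markers of their label. Neuronal markers summed to between 3413 and 3659 CPM in the controls and between 3078 and 3519 CPM with PFOA, with all 8 markers detected above 1 CPM. Noradrenergic markers summed to between 1870 and 2156 CPM in the controls and to between 1705 and 1899 CPM with PFOA. TH, the rate-limiting enzyme of catecholamine synthesis, was the exception among them at 0 to 1.22 CPM over the 6 libraries. Markers of substrate-adherent or mesenchymal cells summed to between 153 and 162 CPM in the controls and between 121 and 142 CPM with PFOA, and these ranges did not overlap. The homeodomain gene PRRX1 had no count in any of the 6 libraries and YAP1 stayed at or below 0.178 CPM. All 7 glial markers were higher with PFOA in the fit, with 0 past the test. Glial markers (10.6 to 15.3 CPM over both groups) and immune or blood markers (0.514 to 1.05 CPM) were near the floor, with CD3E and HBB at 0 throughout. In bulk RNA, fewer cells of a type and less RNA per cell cannot be told apart.

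With PFOA 7 genes were lower and 1 was higher (edgeR, adjusted p of 0.05), or 0.0322% of the genes tested (0.0281% lower and 0.00402% higher). Among the genes that fell were EGR1, FOS, MAOB, GPX4, PTMS and PRR36, and the gene that rose was the host transcript of miR-137, MIR137HG. For all 8 genes the 3 PFOA libraries lay outside the range of the 3 controls. Without an adjustment for multiple testing, 1109 genes (4.46%) were higher and 1394 (5.6%) lower at a p of 0.05, and 21 genes passed at an adjusted p of 0.1. DESeq2 called 75 genes (0.301%), 16 higher (0.0643%) and 59 lower (0.237%). With limma voom and library weights 728 genes passed (2.93%), 237 higher (0.953%) and 491 lower (1.97%). Counting genes whose groups did not overlap, 1853 (7.45%) were higher and 2105 (8.46%) lower with PFOA, 15.9% in all. The median log2 fold change of all genes tested was 0.01, and 48.2% were negative. Of 8565 protein-coding genes at a mean of 20 CPM or more, 63.4% were negative, with a median of -0.04. In edgeR 1055 of these were lower at an unadjusted p of 0.05.

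**Figure D1:**
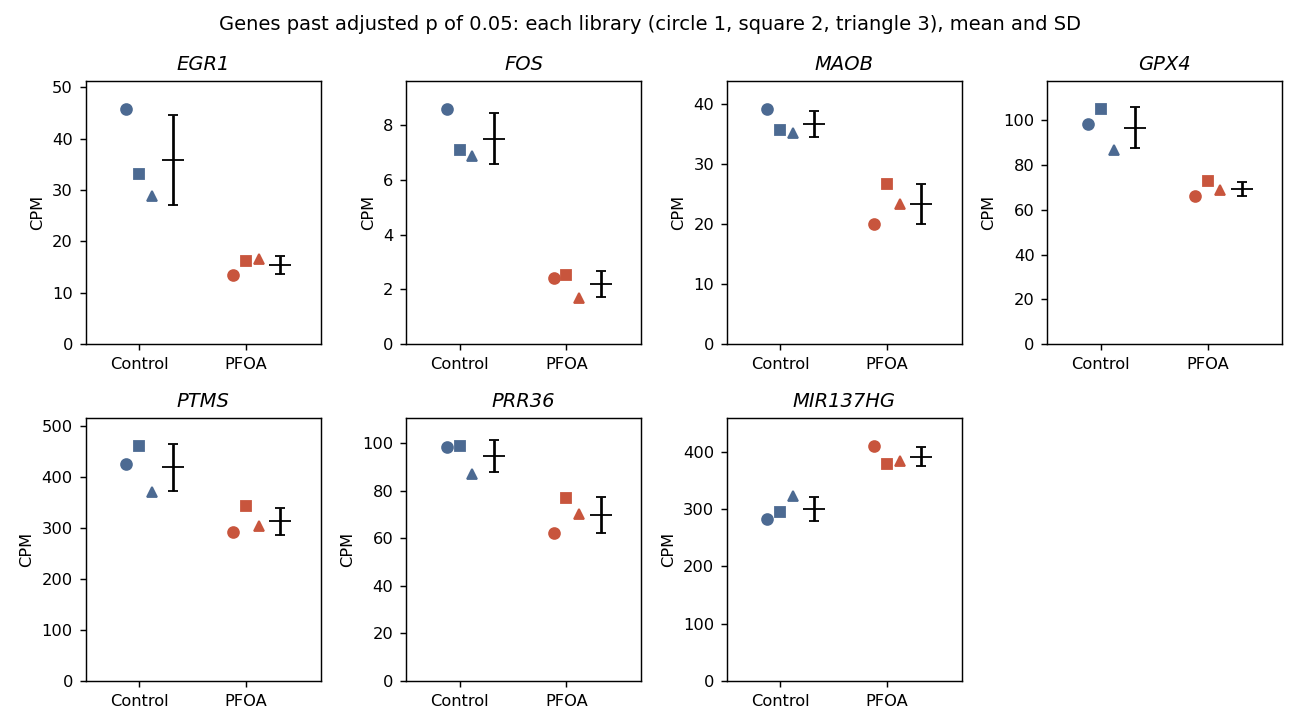
CPM (vertical axes, from 0) of 7 genes past an adjusted p of 0.05 in each of the 3 control and 3 PFOA libraries, with bars for the mean and SD. In each panel the PFOA points lie outside the control range, below it for 6 genes and above it for MIR137HG.

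Among the genes past the threshold, the immediate early genes EGR1 and FOS had the largest changes. EGR1, a zinc finger transcription factor induced by growth factor signalling, stood at 45.7, 33.01 and 28.7 CPM in control replicates 1 to 3 and at 13.4, 16.2 and 16.5 CPM in PFOA replicates 1 to 3. The controls were spread widely and the PFOA libraries narrowly, and the lowest control was above the highest PFOA value. EGR1 fell by 1.21 on the log2 scale (SE 0.15, edgeR adjusted p = 1.42e-05). The gene lies on chromosome 5 at 138465479 to 138469303 (hg38, plus strand). FOS, the AP-1 subunit c-Fos, stood at 8.57, 7.08 and 6.85 CPM in the controls and at 2.40, 2.54 and 1.67 CPM with PFOA. It fell by 1.79 on the log2 scale (SE 0.28, edgeR adjusted p = 0.0011), and it lies on chromosome 14 at 75278826 to 75282230, plus strand. All 3 PFOA values of FOS were under 3 CPM and all 3 controls above 6. EGR1 passed in all 16 processing settings. Neither DESeq2 fit called FOS, and it had no adjusted p there. Of the 14 settings that gave it one, FOS passed in 13. The exception was the fit without PFOA replicate 3, with an adjusted p of 0.178.

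The sequences before the start sites of EGR1 and FOS are shown because these genes had the largest falls among those past the threshold and because the elements that drive immediate early genes are well characterised. Each window is the RefSeq promoter (GRCh38.p14), from 250 bases before to 50 bases after the start, plus strand, and it is 300 bases long. Capitals mark CArG boxes and the cAMP response element core TGACG or its reverse complement. The EGR1 window is chr5:138465229-138465528 and the FOS window is chr14:75278578-75278877.
EGR1: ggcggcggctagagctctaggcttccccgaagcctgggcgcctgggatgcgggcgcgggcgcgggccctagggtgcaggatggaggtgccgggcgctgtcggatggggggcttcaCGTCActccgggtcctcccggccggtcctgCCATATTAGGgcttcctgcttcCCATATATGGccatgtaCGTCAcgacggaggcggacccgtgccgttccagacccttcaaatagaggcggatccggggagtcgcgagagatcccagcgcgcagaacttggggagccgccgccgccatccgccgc
FOS: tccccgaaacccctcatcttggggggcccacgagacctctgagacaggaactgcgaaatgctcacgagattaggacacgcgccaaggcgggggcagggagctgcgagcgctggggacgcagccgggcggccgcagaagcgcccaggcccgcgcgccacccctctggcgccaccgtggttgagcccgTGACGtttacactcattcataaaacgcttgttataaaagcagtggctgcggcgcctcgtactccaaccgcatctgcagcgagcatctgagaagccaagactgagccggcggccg

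The EGR1 window held 2 CArG boxes, whose first bases lie 105 and 83 bases before the start, and 2 TGACG cores on the reverse strand, at 135 and 66 bases. The FOS window held 1 TGACG core on the forward strand, at 64 bases, and no CArG box. Sequence further upstream was not searched, so the window cannot show whether FOS has a CArG box beyond it. Searched on both strands, a CArG box occurred in 1.29% of all 35116 RefSeq promoter windows of this length and TGACG in 24.6%. The palindromic element TGACGTCA, which contains that core, occurred in 1.85% and in neither window. The AP-1 site TGANTCA (7.71% of windows) was absent from the windows of EGR1, FOS, MAOB, GPX4, PRR36 and MIR137HG. An EGR site, GCGNGGGCG (9.43% of windows), occurred in windows of EGR1, MAOB and GPX4, and the PPAR response element (0.31%) in none. GPX4 had 3 windows and PTMS had 0. TGACG also occurred in each of the 3 GPX4 windows and in that of MIR137HG, the gene that rose, but not in those of MAOB and PRR36. These are matches of letters only, and they say nothing of binding in these cells.

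Among 35 listed immediate early genes, 28 were tested, 2 fell (EGR1 and FOS) and 0 rose. Of the 28, 23 were negative (82.1%, against 63.4% of protein-coding genes at 20 CPM or more). The list median was -0.22, against 0.01 over all genes tested. When scaled by library size only these were -0.15 and 0.08. Without overlap, 7 of the 28 were lower with PFOA (25%), against 8.46% of all genes tested and 15.9% of protein-coding genes at 20 CPM or more. PLK2, a polo-like kinase induced by neuronal activity, read 45.04, 48.6 and 40.97 CPM in the controls and 33.7, 32.1 and 32.2 CPM with PFOA. Its log2 fold change was -0.46 (SE 0.11), with an edgeR adjusted p of 0.126, and of 0.0378 without control replicate 3. FOSB, KLF6 and FOSL2 were named after their values were seen. FOSB, another AP-1 subunit, read 1.11, 1.01 and 1.71 CPM against 0.428, 0.299 and 0.361 CPM, a log2 fold change of -1.80 with an SE of 0.57 at these low counts. KLF6 was at -0.33 (SE 0.10) and FOSL2 at -0.43 (SE 0.15), again without overlap of the groups, and the edgeR adjusted p-values of these 3 genes ran from 0.206 to 0.319. With limma voom and library weights 6 members of the list fell and with DESeq2 2 fell, FOS not among the latter.

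The feedback genes that ERK signalling induces, and that damp it, pointed the same way with smaller values. Of 19 tested, 14 were negative (73.7%, against 63.4% of protein-coding genes at 20 CPM or more). Their median was -0.14, or -0.07 when scaled by library size only. Without overlap 5 were lower (26.3%, against 8.46% of all genes tested and 15.9% of protein-coding genes at 20 CPM or more). By edgeR 0 passed, against 7 lower at an unadjusted p of 0.05, while DESeq2 called 1 and limma voom 4. SPRY4, an inhibitor of receptor tyrosine kinase signalling, read 90.4, 77.9 and 66.1 CPM in the controls and 58.6, 61.7 and 56.2 CPM with PFOA. Its log2 fold change was -0.41 (SE 0.09, edgeR adjusted p = 0.0915), and without control replicate 3 it fell by 0.52 (adjusted p = 0.00411). SPRY2, a second Sprouty inhibitor, was at -0.33 (SE 0.09, edgeR adjusted p = 0.181). ETV5, a transcription factor downstream of ERK whose gene overlaps DGKG, was at -0.24 (SE 0.08, edgeR adjusted p = 0.299). In both of these genes every PFOA library lay under every control. Against the control mean, the immediate early list had medians of -0.27, -0.10 and -0.24 in PFOA replicates 1 to 3 and of 0.01, 0.01 and -0.11 in control replicates 1 to 3. For the ERK feedback list these were -0.24, -0.04 and -0.13 with PFOA and -0.01, 0.02 and -0.09 in the controls. In both lists control replicate 3 lay below PFOA replicate 2, so the list medians of the 2 groups overlapped.

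**Figure D2:**
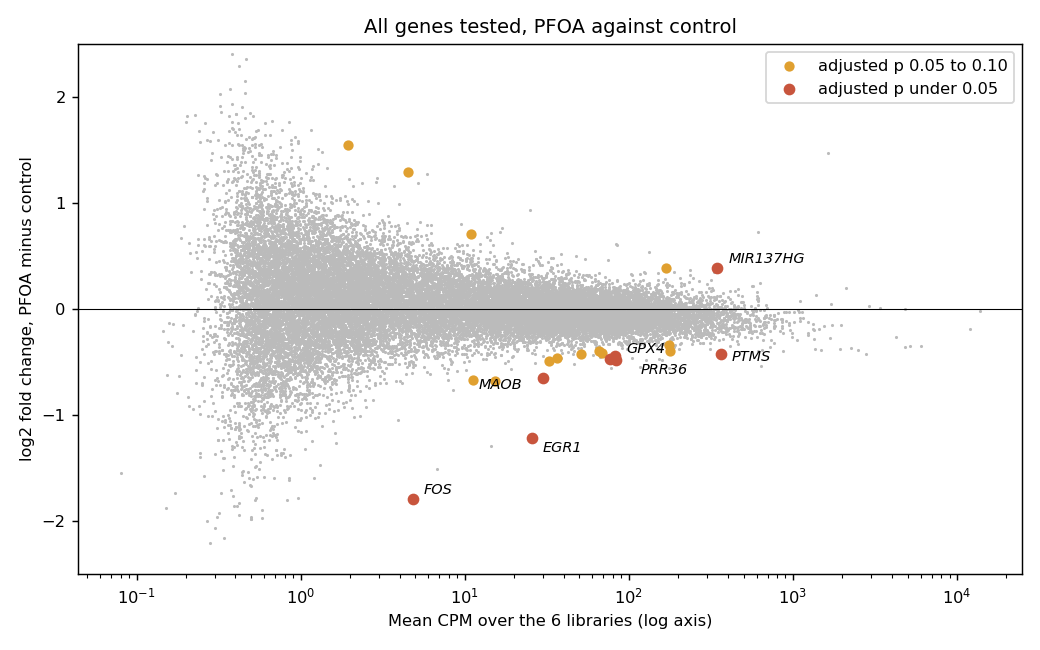
Log2 fold change, PFOA minus control (vertical axis, drawn to 2.5 on either side of 0), against mean CPM over the 6 libraries (horizontal log axis) for the genes tested, with genes past an adjusted p of 0.05 in red and those between 0.05 and 0.10 in orange. The 13 genes outside the vertical range are not drawn, none of which passed, and FOS and EGR1 are the 2 called genes below -1.

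MAOB and GPX4 are enzymes of monoamine breakdown and antioxidant defence. MAOB, the outer mitochondrial membrane enzyme that oxidises monoamines, read 39.2, 35.7 and 35.2 CPM in the controls and 19.97, 26.7 and 23.4 CPM with PFOA. It fell by 0.65 on the log2 scale (SE 0.13, edgeR adjusted p = 0.0324). Its gene is on chromosome X at 43766610 to 43882450, minus strand. GPX4, the selenoenzyme that reduces lipid peroxides and protects against ferroptosis, read 98.3, 105 and 86.8 CPM against 66.2, 72.6 and 69.0 CPM. GPX4 fell by 0.48 (SE 0.09, edgeR adjusted p = 0.0324) and lies on chromosome 19 at 1103982 to 1106791, plus strand. In both genes PFOA replicate 1 was the lowest library and PFOA replicate 2 the nearest to the controls.

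PTMS and PRR36 also fell. PTMS, which encodes the small acidic nuclear protein parathymosin, read 425, 460.4 and 369.6 CPM in the controls and 292, 343 and 303 CPM with PFOA (log2 fold change -0.42, SE 0.08). PRR36, a proline-rich protein, read 98.2, 98.7 and 86.9 CPM against 62.0, 77.0 and 70.0 CPM (log2 fold change -0.44, SE 0.09), and the edgeR adjusted p of both was 0.0324. PTMS is on chromosome 12 at 6765516 to 6770952, plus strand, and PRR36 on chromosome 19 at 7868719 to 7874390, minus strand. Control replicate 3 was the lowest control in both genes.

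MIR137HG rose. This long RNA is the precursor of miR-137, which is enriched in brain. It read 283, 295 and 323 CPM in the controls and 411, 379.9 and 385 CPM with PFOA, a log2 fold change of 0.38 (SE 0.08, edgeR adjusted p = 0.0324). It is on chromosome 1 at 97933474 to 98049871, minus strand, and its exons overlap DPYD, so that reads there could not be assigned. The counts measure the host transcript and not the mature miRNA, whose RefSeq sequences are shown with bases 2 to 8, the seed, in capitals to identify the product of this host.
hsa-miR-137-3p: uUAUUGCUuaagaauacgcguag
hsa-miR-137-5p: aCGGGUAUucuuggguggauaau

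The calls at an adjusted p of 0.0324 depended on single libraries. GPX4, MAOB, PRR36, MIR137HG and PTMS each lost the call when replicate 1 or 2 of the controls, or replicate 1 or 3 of PFOA, was left out. Over all settings their adjusted p-values reached at most 0.610, or 0.656 for PRR36. Their direction held in all 16 settings. The settings refit the same libraries, and in each gene the groups did not overlap, so a change of direction was hardly possible. Scaling by library size only also ended the calls of GPX4, MAOB, PRR36 and PTMS. Leaving out control replicate 1, 2 or 3 gave 2 (0.00781%), 2 (0.0078%) and 136 calls. Leaving out PFOA replicate 1, 2 or 3 gave 2 (0.00738%), 35 (0.129%) and 1 (0.00391%). The share of tested genes called was 0.0161% with library size only, 0.0404% with a stricter filter, 0.351% with no filter, 0.337% with only the groups compared and 0.0241% with a replicate block. It was 0.661% without the 2 libraries absent from the authors' normalized table, and 1.81% with DESeq2 and control replicate 3 left out.

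**Figure D3:**
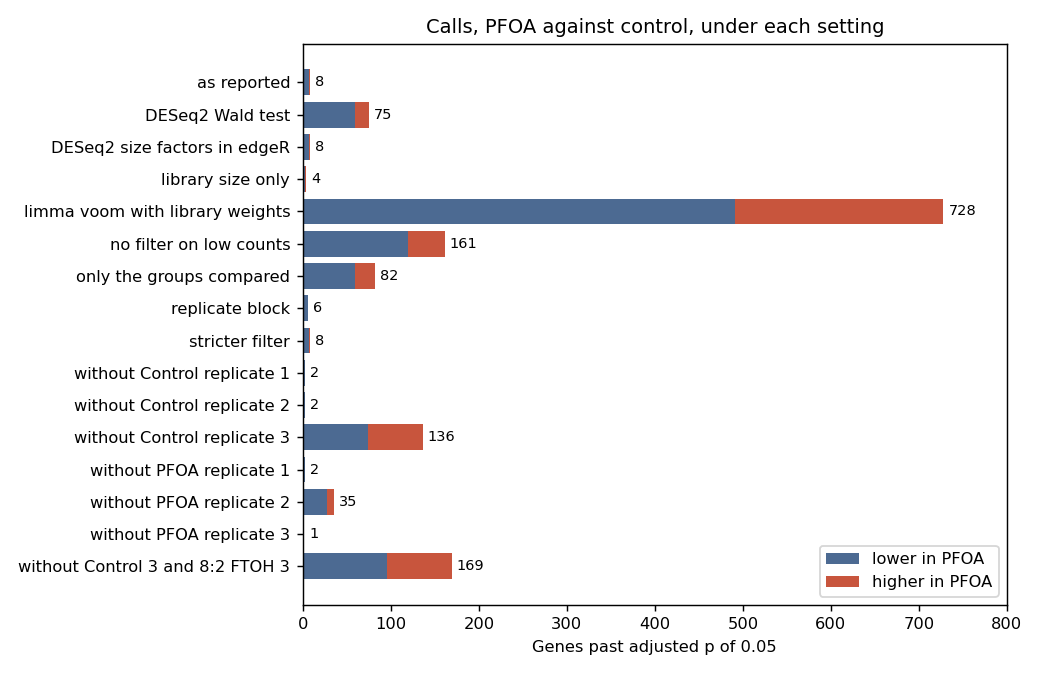
Number of genes past an adjusted p of 0.05 in PFOA against control (horizontal axis) under each processing setting, split into lower (blue) and higher (red). The count ran from 1 without PFOA replicate 3 to 728 with limma voom and library weights, against 8 as reported.

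Without control replicate 3, 62 genes rose (0.242%) and 74 fell (0.289%), together 0.531% of 25631 genes tested. All 8 genes above were among them. Control replicate 3 lay nearer to the PFOA libraries than both other controls in 61 of the 62 rises and 73 of the 74 falls, and within or beyond the PFOA range in 34 rises and 16 falls. Every one of the 136 kept its sign when control replicate 3 was included. The median log2 fold change of the rises was 0.51 without it and 0.35 with it, and that of the falls was -0.41 and -0.33. These genes were chosen by a fit without control replicate 3. Its nearness to PFOA, the smaller changes with it and the kept signs therefore follow in part from that choice.

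The same choice applies to the rises with the smallest p in that fit. MZT1, a component of the gamma-tubulin complex, read 35.04, 37.7 and 63.3 CPM in control replicates 1 to 3 and 58.1, 69.4 and 60.8 CPM with PFOA. Its log2 fold change was 0.79 without control replicate 3 (edgeR adjusted p = 0.000435) and 0.47 with it (adjusted p = 0.392). TMEM106B, a lysosomal membrane protein, read 82.3, 93.2 and 142 CPM in the controls and 119.5, 135 and 127 CPM with PFOA. In both genes control replicate 3 lay inside or above the PFOA range. TXNIP, a glucose-responsive inhibitor of thioredoxin, read 81.7, 109 and 141 CPM against 142, 135 and 143 CPM. BNIP3, a hypoxia-inducible mitophagy receptor, read 70.2, 87.0 and 118 CPM against 109.8, 109 and 108 CPM. Without control replicate 3 the log2 fold changes of TMEM106B, TXNIP and BNIP3 were 0.54, 0.56 and 0.47, with edgeR adjusted p-values from 0.000718 to 0.0137. With it they were 0.27, 0.34 and 0.25, with adjusted p-values from 0.411 to 0.537. DNAJB14, TMED7, TMEM168 and ABHD13 were the other rises under the rule for named genes.

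Of the 74 falls in that fit, 7 passed with all libraries. Among the falls named from it, CREBBP and TBX3, like SPRY4 above, were not past the threshold with all libraries. CREBBP, the acetyltransferase that serves as a CREB coactivator, read 213, 208 and 171 CPM in the controls and 146, 161 and 160.0 CPM with PFOA. The groups did not overlap, and its log2 fold change was -0.34 with all libraries (edgeR adjusted p = 0.0915) and -0.43 without control replicate 3 (adjusted p = 0.00341). TBX3, a T-box repressor whose gene overlaps TBX3-AS1, read 233, 202 and 176 CPM against 147, 166 and 151 CPM, with log2 fold changes of -0.40 (edgeR adjusted p = 0.071) and -0.49 (adjusted p = 0.00341). In both genes control replicate 3 was the lowest control and still above every PFOA library.

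Neuronal structure genes lay lower as a group. Of 33 genes of the neuronal cytoskeleton and neurite growth, 32 were negative, the median was -0.21, and 18 lay lower without overlap (54.5%), against 15.9% of protein-coding genes at a mean of 20 CPM or more, whose median was -0.04, or 0.03 when scaled by library size only. The list median was -0.14 with that scaling. By edgeR 0 passed, while 22 were lower at an unadjusted p of 0.05, 4 fell by DESeq2 and 16 by limma voom. The direction was the same when any 1 library was left out, with medians from -0.28 to -0.18. MAP1B, a microtubule-associated protein of growing axons, read 5524, 5334 and 5355 CPM in the controls and 3789, 4856 and 4009.6 CPM with PFOA. DPYSL3, a collapsin response mediator, read 819, 836 and 796 CPM against 585, 693 and 638 CPM. BASP1, a growth cone membrane protein, read 158, 169 and 157 CPM against 123, 139 and 122 CPM. In all 3 genes the groups were separate and PFOA replicate 2 was nearest to the controls. Their log2 fold changes were -0.36 (SE 0.09), -0.35 (SE 0.08) and -0.33 (SE 0.08), with edgeR adjusted p-values from 0.103 to 0.145. Without control replicate 3 BASP1 (adjusted p = 0.0362) and DPYSL3 (adjusted p = 0.0497) fell. Over the list, the median against the control mean was -0.33, -0.09 and -0.23 in PFOA replicates 1 to 3 and between -0.03 and 0.02 in the controls.

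Synaptic and adrenergic identity genes showed smaller shifts. Of 31 synaptic vesicle genes 27 were negative (87.1%, against 63.4% of protein-coding genes at 20 CPM or more). Their median was -0.11 (-0.04 by library size only), and 0 passed by edgeR. In edgeR 10 were lower at an unadjusted p of 0.05, while DESeq2 called 2 lower and limma voom 6. SYP, the vesicle membrane protein synaptophysin, read 134, 134 and 123 CPM in the controls and 106, 111 and 105 CPM with PFOA (log2 fold change -0.28, SE 0.07). Its edgeR adjusted p was 0.144 and, without control replicate 3, 0.0258. Of 18 adrenergic transcription factors 17 were negative with a median of -0.11, which was -0.04 by library size only and -0.07 to -0.15 with 1 library left out. By edgeR 0 passed (5 lower at an unadjusted p of 0.05), while DESeq2 called 1 lower and limma voom 3. GATA3, a zinc finger factor of sympathetic neurons, read 292, 309 and 299 CPM against 229, 255 and 268 CPM, a log2 fold change of -0.26 (SE 0.07, edgeR adjusted p = 0.173). MAOB was the only one of 19 catecholamine genes to fall, and that list had a median of -0.07. SLC6A2, the noradrenaline transporter, was at -0.21 (SE 0.08, edgeR adjusted p = 0.378) with control replicate 3 inside the PFOA range. Substrate-adherent and mesenchymal markers had a median of -0.21, with 13 of 14 negative. Their summed level moved with the neuronal lists, and its part in them was not tested.

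**Figure D4:**
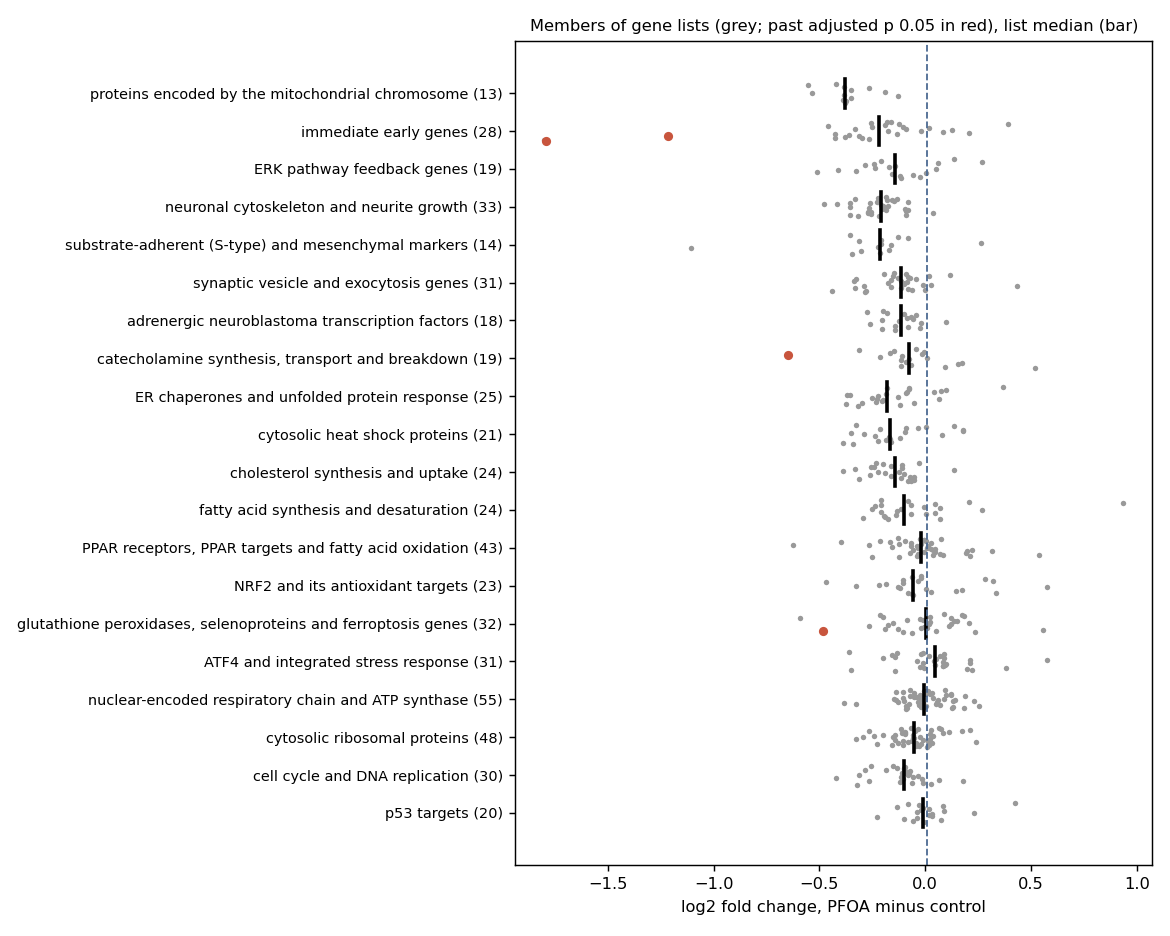
Log2 fold change, PFOA minus control (horizontal axis), of each tested member of 20 gene lists (1 line per list, number tested in brackets), with a black bar for the list median and a dashed line at the median of all genes tested. Members past an adjusted p of 0.05 are red, and they occur in the immediate early, catecholamine and glutathione lists.

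All 13 protein genes of the mitochondrial chromosome had a negative fold change with PFOA, except that MT-ND4L stood at 0.04 without control replicate 3. These genes are transcribed as long joint transcripts, so they are not independent of one another. Their median log2 fold change was -0.38, from -0.55 to -0.13, and in 12 of the 13 every PFOA library lay under every control (92.3%, against 8.46% of all genes tested and 15.9% of protein-coding genes at 20 CPM or more). By edgeR 0 passed, with 5 lower at an unadjusted p of 0.05, and DESeq2 and limma voom called 0. MT-CO2, a subunit of cytochrome c oxidase, read 5276, 6117 and 6099.6 CPM in the controls and 4349, 4712 and 4662 CPM with PFOA. MT-CYB, the cytochrome b of complex III, read 3089.8, 3258 and 3227 CPM against 2258, 2446 and 2448 CPM. In both genes the controls and the PFOA libraries formed separate groups, with log2 fold changes of -0.35 (SE 0.10, edgeR adjusted p = 0.21) and -0.42 (SE 0.12, edgeR adjusted p = 0.231). Together these genes took 4.11%, 4.34% and 4.35% of counts in the controls and 3.53%, 3.60% and 3.76% with PFOA. The 15 libraries of the other groups ranged from 3.19% to 5.18%, so the PFOA and the control values both lie within the range of the series. Without control replicate 3 the median was -0.32. The nuclear-encoded subunits of the respiratory chain and ATP synthase did not show the pattern, with 29 of 55 negative and a median of -0.01, or 0.06 when scaled by library size only, and 0 called by edgeR (2 higher and 2 lower at an unadjusted p of 0.05).

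**Figure D5:**
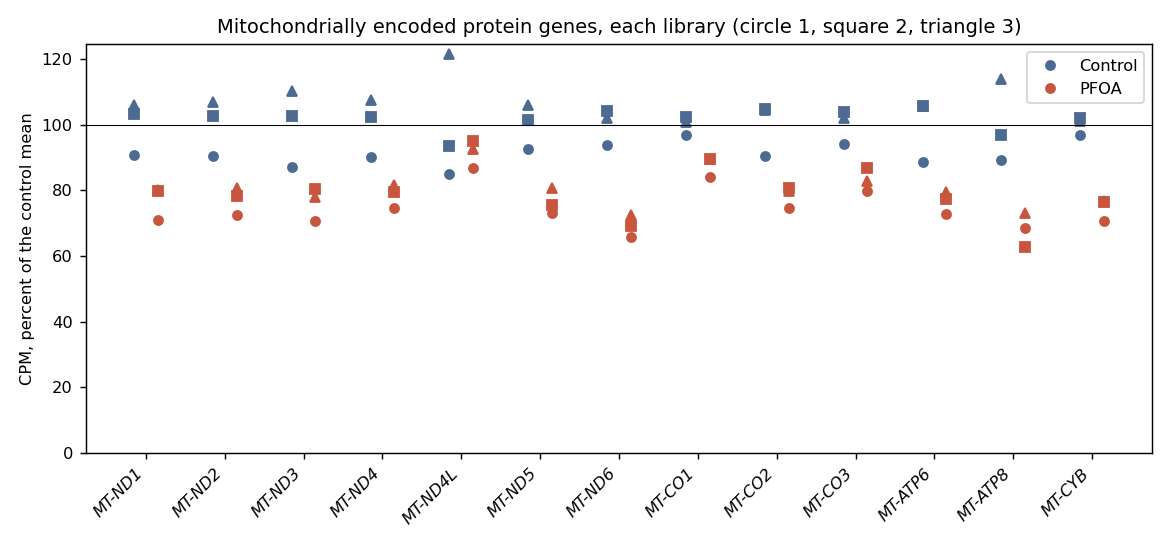
CPM of the 13 mitochondrially encoded protein genes as a percent of the control mean (vertical axis, from 0), for each control (blue) and PFOA (red) library, with a line at 100. In 12 genes the 3 PFOA points lie below the 3 control points, and in MT-ND4L they overlap.

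Genes of PPAR signalling and fatty acid oxidation, on which PPARA ligands act in liver, had a median near that of all genes tested. Of 43 PPAR receptors, PPAR targets and fatty acid oxidation genes, 25 were negative (58.1%, against 63.4% of protein-coding genes at 20 CPM or more). The median was -0.02, or 0.05 when scaled by library size only. By edgeR, DESeq2 and limma voom 0 passed (1 higher and 2 lower at an unadjusted p of 0.05 in edgeR). Of 49 listed, 6 were not tested for low counts. ACADM, the medium-chain acyl-CoA dehydrogenase of mitochondrial fatty acid oxidation, read 56.6, 62.9 and 66.4 CPM in the controls and 75.7, 72.0 and 65.7 CPM with PFOA. Its groups overlapped, with a log2 fold change of 0.20 (SE 0.08, edgeR adjusted p = 0.412), and its gene overlaps RABGGTB. PPARD, the receptor of this family that is widely expressed, read 62.5, 54.5 and 52.5 CPM against 50.1, 45.4 and 47.2 CPM. It was at -0.25 (SE 0.09, edgeR adjusted p = 0.319), and its interval of -0.43 to -0.07 excludes a fall of 2-fold.

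Cholesterol synthesis and uptake genes leaned lower. Of 24 tested, 23 were negative with a median of -0.14 (-0.07 when scaled by library size only). Without overlap 10 lay lower (41.7%), against 8.46% of all genes tested and 15.9% of protein-coding genes at 20 CPM or more. By edgeR and DESeq2 0 passed, with 8 lower at an unadjusted p of 0.05 in edgeR, and 4 fell by limma voom. SQLE, the squalene epoxidase, read 231, 249.9 and 236 CPM in the controls and 187, 216 and 194 CPM with PFOA (log2 fold change -0.26, SE 0.07, edgeR adjusted p = 0.178). NSDHL, a sterol dehydrogenase of the same pathway, read 46.5, 44.4 and 40.6 CPM against 30.1, 34.2 and 35.8 CPM (log2 fold change -0.39, SE 0.11). Neither gene's groups overlapped. Of 24 fatty acid synthesis genes 16 were negative (66.7%, against 63.4% of protein-coding genes at 20 CPM or more). Their median was -0.10, or -0.03 by library size only. Without overlap 9 lay lower (37.5%, against 8.46% of all genes tested and 15.9% of protein-coding genes at 20 CPM or more). By edgeR and DESeq2 0 passed (6 lower at an unadjusted p of 0.05 in edgeR), and 2 fell by limma voom. FADS2, the delta-6 desaturase, was at -0.25 (SE 0.09) and overlaps FADS1 and FEN1, and ELOVL5, a fatty acid elongase, was at -0.21 (SE 0.07). Their edgeR adjusted p-values were 0.311 and 0.313.

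Protein folding genes also leaned lower. Of 25 genes of the endoplasmic reticulum chaperones and unfolded protein response, 20 were negative with a median of -0.18, or -0.11 by library size only. Without overlap 12 lay lower (48%), against 8.46% of all genes tested and 15.9% of protein-coding genes at 20 CPM or more. PDIA3, a protein disulfide isomerase whose gene overlaps ELL3, read 269.7, 282 and 265 CPM in the controls and 213, 236 and 215 CPM with PFOA (log2 fold change -0.30, SE 0.08, edgeR adjusted p = 0.168). Of 21 cytosolic heat shock proteins 16 were negative with a median of -0.16, and 9 lay lower without overlap (42.9%, against the same background). That median was -0.10 by library size only and ran from -0.22 to -0.11 with 1 library left out. AHSA1, an activator of the HSP90 ATPase, read 110.4, 113 and 101 CPM against 88.5, 83.4 and 86.9 CPM. Its log2 fold change was -0.33 (SE 0.08, edgeR adjusted p = 0.126), and it fell without control replicate 3 (adjusted p = 0.0258). In each of the 2 lists 0 passed by edgeR, with 8 and 9 lower at an unadjusted p of 0.05. DESeq2 called 0 and 1, and limma voom 5 and 6.

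The stress response lists had medians near that of all genes. ATF4 and integrated stress response genes had a median of 0.05 over 31 tested, and their median was 0.10 without control replicate 3. By edgeR and DESeq2 0 passed, with 3 higher and 3 lower at an unadjusted p of 0.05 in edgeR, and limma voom called 2 higher and 1 lower. SLC7A11, the cystine transporter controlled by both ATF4 and NRF2, read 4.31, 6.66 and 7.90 CPM in the controls and 10.0, 8.88 and 9.20 CPM with PFOA. Its log2 fold change was 0.57 (SE 0.17, edgeR adjusted p = 0.193), and without control replicate 3 it rose by 0.77 (adjusted p = 0.0338). NRF2 targets had a median of -0.06 over 23 tested, which became 0.01 when scaled by library size only. By edgeR 0 passed (1 higher and 4 lower at an unadjusted p of 0.05), while DESeq2 called 2 lower and limma voom 1 higher and 2 lower. PGD, an enzyme of the pentose phosphate pathway, read 236, 247 and 203 CPM against 169, 194 and 183 CPM (log2 fold change -0.33, SE 0.08, edgeR adjusted p = 0.106). FTH1, the heavy chain of ferritin, read 184, 196 and 152 CPM against 117, 136 and 132 CPM (log2 fold change -0.47, SE 0.12, edgeR adjusted p = 0.186) and overlaps BEST1. Both fell without control replicate 3, with adjusted p-values of 0.00787 and 0.0424. The glutathione and selenoprotein list, in which GPX4 fell, had 16 of 32 negative and a median of 0.00. The p53 targets had a median of -0.01 over 20 tested, which was 0.06 by library size only, and 0 passed by edgeR, DESeq2 or limma voom (2 higher at an unadjusted p of 0.05 in edgeR). In the remaining lists 0 passed by edgeR. Their medians ran from -0.13 for xenobiotic metabolism to 0.23 for glial markers, apart from the single immune gene tested at -0.36.

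Of 30 cell cycle genes 27 were negative (90%, against 63.4% of protein-coding genes at 20 CPM or more), with a median of -0.10. It was -0.03 by library size only and ran from -0.13 to -0.06 with 1 library left out. In this list 0 passed by edgeR, 2 by DESeq2 and 5 by limma voom. At an unadjusted p of 0.05 in edgeR 6 were lower, as were 1055 of 8565 protein-coding genes at 20 CPM or more. Without overlap 8 lay lower (26.7%, against 8.46% of all genes tested and 15.9% of protein-coding genes at 20 CPM or more) and 1 higher. PLK1, a mitotic kinase whose gene overlaps ERN2, read 58.4, 61.4 and 55.3 CPM in the controls and 42.6, 42.8 and 45.2 CPM with PFOA. Its log2 fold change was -0.42 (SE 0.09, edgeR adjusted p = 0.0661). MKI67, the marker of cycling cells, read 876, 874 and 819 CPM against 627, 756 and 674 CPM, a log2 fold change of -0.32 (SE 0.08, edgeR adjusted p = 0.145). The groups were separate in both genes. TOP2A, the DNA topoisomerase of cycling cells, did not share this, at 489, 570.5 and 582 CPM against 564, 571 and 538 CPM (log2 fold change 0.03, SE 0.08, edgeR adjusted p = 0.946). The progenitor marker list had 3 of 6 members negative and a median of -0.01.

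Beyond the lists, the protein-coding genes with the largest fitted changes among those without overlap and at 5 CPM or more in the higher group were low in count. Besides FOS and EGR1, the falls were APLNR, TLL2 and ZNF385D. APLNR, the apelin receptor, read 4.71, 6.33 and 4.66 CPM against 2.57, 2.69 and 2.39 CPM (log2 fold change -1.04, SE 0.30, edgeR adjusted p = 0.192). TLL2, a tolloid-like metalloprotease, was at -0.76 (SE 0.19, edgeR adjusted p = 0.144), and without control replicate 3 it fell by 0.95 (adjusted p = 0.0141). The rises were CEACAM1, TNFRSF13C, OGN, DYNLT2 and ALS2CL. CEACAM1, a cell adhesion molecule whose gene overlaps LIPE-AS1, read 4.13, 4.52 and 4.90 CPM against 8.23, 7.32 and 7.98 CPM (log2 fold change 0.80, SE 0.21, edgeR adjusted p = 0.149).

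The fitted median was higher for non-coding classes than for protein-coding genes. The median log2 fold change was -0.03 for 14437 protein-coding genes (0.04 when scaled by library size only), 0.13 for 1643 lincRNAs, 0.13 for 2578 antisense RNAs and 0.12 for 2110 processed pseudogenes. By library size only these 3 non-coding medians were 0.19, 0.20 and 0.19. Against the control mean, the lincRNA median was 0.10, 0.02 and 0.10 in PFOA replicates 1 to 3 and 0.02, -0.04 and 0.00 in the controls. PFOA replicate 2 thus lay at the level of control replicate 1 for lincRNAs. For antisense RNAs (0.01 against 0.05) and processed pseudogenes (-0.04 against 0.05) it lay below control replicate 1. In 125 tested small nucleolar RNAs, which guide the modification of ribosomal RNA, 84 were positive with a median of 0.20. Small nucleolar RNAs took 0.0906%, 0.167% and 0.209% of counts in the controls and 0.342%, 0.365% and 0.314% with PFOA. The other 15 libraries ranged from 0.132% to 0.399%, so of the 6 libraries only control replicate 1 lay outside that range, below it. SNORD3A, SNORD94 and NEAT1 were named after their values were seen. SNORD3A, the U3 RNA of ribosomal RNA processing, with near-identical copies among which reads may be split, read 380.1, 812 and 1408 CPM against 2282, 2759 and 2156 CPM. The controls differed among themselves by more than 3-fold, and the log2 fold change was 1.47 (SE 0.43, edgeR adjusted p = 0.275). SNORD94 read 1.78, 2.64 and 3.43 CPM against 6.08, 6.57 and 6.49 CPM, a log2 fold change of 1.29 (SE 0.28, edgeR adjusted p = 0.0915). NEAT1, the scaffold RNA of paraspeckles, read 473, 475 and 431 CPM against 943, 600.4 and 742 CPM (log2 fold change 0.73, SE 0.28, edgeR adjusted p = 0.411). Genes in the lowest and highest GC quintile had medians of 0.07 and -0.05, or 0.12 and -0.09 without control replicate 3, and the part of library preparation in these class shifts was not tested.

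PFOA was then compared directly with PFDA, a carboxylic acid with a longer fluorinated chain, and with PFOS, which carries a sulfonic acid head group. These are 2 pairs at a matched dose and time, with p-values adjusted over genes within each pair. In each pair 0 genes passed (0% of 24879 tested) by edgeR, DESeq2 and limma voom. At an unadjusted p of 0.05, edgeR gave 729 genes against PFDA and 1220 against PFOS, DESeq2 747 and 1241, and limma voom 1450 and 2002. The lowest edgeR adjusted p was 0.958 against PFOS. For 88.2% of the 19823 genes at 1 CPM or more the 95% interval of the difference from PFDA lay within a 2-fold change, and for 87.2% that from PFOS. A p that misses the threshold does not show that the compounds act alike.

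The genes called against control differed between the compounds by the following amounts. EGR1 averaged 15.4 ± 1.73 CPM with PFOA, 15.6 ± 1.72 with PFDA and 12.6 ± 3.47 with PFOS (SD, n = 3 each). The log2 difference, PFOA minus PFDA, was -0.01 with a 95% interval of -0.33 to 0.30, and PFOA minus PFOS was 0.31 (-0.01 to 0.63). FOS averaged 2.20 ± 0.467 CPM with PFOA, 2.71 ± 1.05 with PFDA and 1.38 ± 0.486 with PFOS, with log2 differences of -0.38 (-0.97 to 0.22) and 0.70 (0.05 to 1.35). GPX4 averaged 69.2 ± 3.25 CPM with PFOA, 77.5 ± 1.14 with PFDA and 83.4 ± 10.0 with PFOS. GPX4 was at -0.16 (-0.35 to 0.03) against PFDA and at -0.26 (-0.46 to -0.07) against PFOS. PRR36 was at -0.24 (-0.42 to -0.06) against PFDA and at -0.23 (-0.41 to -0.06) against PFOS. MAOB was at -0.15 (-0.41 to 0.11) and -0.17 (-0.43 to 0.09), and PTMS at -0.05 (-0.22 to 0.12) and -0.19 (-0.36 to -0.02), in the same order. MIR137HG was at 0.02 (-0.14 to 0.17) and 0.01 (-0.14 to 0.17). Some of these single intervals exclude 0, but none of the differences passed after adjustment over all genes.

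When only the PFOA and PFOS libraries were fitted, 2 genes passed (0.009%), both lower with PFOA. They were NPY, a neuropeptide of sympathetic neurons, and VGF, a secreted granin-like protein, which was named after its values were seen. NPY averaged 106 ± 5.43 CPM with PFOA and 135 ± 4.74 with PFOS, and VGF averaged 1216 ± 50.1 and 1538 ± 73.4 CPM (SD, n = 3 each). In that fit their log2 differences were -0.34 (SE 0.06) and -0.34 (SE 0.06), with an edgeR adjusted p of 0.0271 for both. In the fit of all libraries the adjusted p was 0.958 for both. Against control, NPY read 135, 159 and 148 CPM in the controls and 102, 103 and 112 CPM with PFOA, with an edgeR adjusted p of 0.368.

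The 6 compounds shared the same 3 controls, so their levels are set side by side without a test across comparisons. The mean EGR1 level was 35.8 ± 8.82 CPM in the controls (SD, n = 3 for this and the groups that follow). It was 15.4 ± 1.73 with PFOA, 17.5 ± 1.53 with PFDS, 23.3 ± 2.97 with 8:2 FTOH and 14.6 ± 0.590 with 8:2 FTS. FOS averaged 7.501 ± 0.934 CPM in the controls, 2.20 ± 0.467 with PFOA, 4.45 ± 1.15 with PFDS, 2.67 ± 0.562 with 8:2 FTOH and 1.56 ± 0.315 with 8:2 FTS. For both genes the mean of each treated group lay under the control mean. The same held for MAOB, GPX4, PTMS and PRR36, narrowly for PRR36 with PFDS (93.2 against 94.6 CPM). For MIR137HG each of these means lay above that of the controls.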

How the data were processed

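RNA-seq counts for 21 libraries of SH-SY5Y cells were used, in 7 groups of 3. The submitters' processing notes name FastQC, MultiQC, HISAT2, SAMtools, featureCounts, DESeq2 and the build hg38, without a role for each. The authors deposited raw counts for 62656 genes (99.97% with an entry in the gene name table). Per the file headers, these counts came from featureCounts 2.0.1 with no option for strand or read pairs. The kit was stranded, and reads in overlapping genes may be lost or shared. Their deposited normalized values, in the unit signal, cover 37476 genes in 19 libraries. Multiplied by 1 factor per library, 100% were whole within 0.01 and equal to the raw counts, so only raw counts were tested.

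The filterByExpr function of edgeR 4.0.16 (R 4.3.3) and TMM scaling preceded 1 robust quasi-likelihood fit of all 21 libraries, with a biological coefficient of variation of 0.1124. Contrasts were PFOA minus control, PFDA or PFOS, adjusted by Benjamini-Hochberg at 0.05. Alternatives were DESeq2 1.42.0, limma 3.58.1 voom with library weights, DESeq2 size factors, library size only, no filter, a stricter one (at least 1 CPM on average and 10 counts in 3 libraries), only the groups compared, a replicate block and leaving out libraries. DESeq2 without control replicate 3 was chosen after seeing the data. The procedure was tested on simulated data.

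The 40 gene lists, described by counts and medians without a set test, and the named genes were chosen with earlier results of these data known. Named genes were those past the threshold, the 8 rises and 8 falls with the smallest p without control replicate 3, up to 3 members of a list by p, the 5 largest changes each way at 5 CPM or more without overlap, and defining genes near 0. Of these, 1 gene past the threshold is not reported here. Any other is identified where it appears. Medians per library used a pseudocount of 0.5 CPM. GC values existed for 94.4% of tested genes. Promoter and miRNA sequences are from RefSeq (GRCh38.p14). Tables and figures used Python 3.11.15, pandas 2.3.3 and matplotlib 3.10.9.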

Additional observations from a re-analysis of the deposited data

How the results depend on the processing

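The 8 calls for PFOA against control became 75 with the DESeq2 test, 464 with DESeq2 and control replicate 3 left out (chosen after seeing the data), 4 with library size only, 728 with limma voom and library weights, 161 with no filter on low counts, 82 with only the groups compared and 169 without control replicate 3 and 8:2 FTOH replicate 3. Leaving out 1 library gave from 1 to 136 calls. The cause of these differences was not tested. DESeq2 size factors and the stricter filter each gave 8. Library size only moved the median of all genes from 0.01 to 0.08 and gave 2 higher and 2 lower calls, against 1 higher and 7 lower. A replicate block gave 6 calls, all lower, and ended those of PTMS and MIR137HG. Same-numbered control and PFOA libraries correlated at 0.099, 0.069 and -0.062 in their deviations from the group means over 13097 genes, so the numbers were not treated as pairs. For PFOA against PFOS 2 genes passed with only the groups compared and 0 otherwise, and for PFOA against PFDA 0 passed in every setting run. Over the alternatives, values of 146 named genes kept their direction and side of the threshold 2010 times, newly passed it 242 times, lost it 32 times and changed sign 5 times. With library size only 27 of 40 list medians moved by more than the SD of the PFOA libraries. Low genes changed sign. Leaving out 1 library moved IFIT1 between -0.079 (without PFOA replicate 3) and 0.36, AQP4 between -0.092 (without PFOA replicate 3) and 0.78, and CD14 between -0.61 and 0.11 (without control replicate 3). CD14 was also at 0.11 without the 2 libraries absent from the authors' table, and TH at -0.051 with limma voom. The shallower PFOA libraries limit the precision for genes under 1 CPM.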
